A study of Mus musculus with 6 samples.

Results

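The 9 genes described here mark the oligodendrocyte lineage, from the precursor cell to the cell that makes myelin. They were taken by symbol, as Olig1, Olig2, Sox10, Pdgfra, Gpr17, Cnp, Mbp, Bcas1 and Erbb3, from the 48709 genes listed in 6 RNA-seq libraries of mouse neocortex. All 9 were found, and 7 were among the 15385 genes with enough reads to be tested. Sox10 and Gpr17 were too low and are given as read counts.

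The mutant group, Rest_het, held 3 embryos heterozygous for a Rest allele without exon 4, which the labels write as Rest(+/deltaExon4) and title KO. The reference was 3 wild-type (WT) embryos. All 6 were taken at E15.5 and were of the C57BL/6 strain, and RNA came from the dissected neocortex alone. The labels give neither litter, sex nor preparation batch. Reads of a Cre-ERT2 sequence were found in Rest_het libraries alone (43 reads in all) and reads of LacZ in WT libraries alone (121 reads in all). The groups therefore carried more differences than the Rest allele, and these cannot be told apart in any comparison below.

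In the embryonic forebrain the first oligodendrocyte precursors arise from ventral progenitors and migrate into the cortex around mid-gestation, and a later wave arises from the cortex itself. Olig1 and Olig2 are basic helix-loop-helix transcription factors that specify these cells, and Sox10 is the SRY-box factor that commits and matures them. Pdgfra is the receptor for the mitogen that expands the precursors, Erbb3 a receptor of neuregulins, and Gpr17 a G-protein coupled receptor of cells about to differentiate. Bcas1 marks cells that begin to myelinate, Cnp encodes a phosphodiesterase of non-compact myelin, and Mbp the myelin basic protein. Several of these genes are not limited to the lineage. Mbp also gives rise to golli transcripts in developing neurons, Pdgfra is expressed by meningeal fibroblasts, and Sox10 and Erbb3 by neural crest and Schwann cells.

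Upstream sequence was at hand for 3 members and is printed to show the bases upstream of a factor of the lineage and of the 2 members most abundant per length. Each window runs from 250 to 101 bases before the RefSeq start on the plus strand of GRCm38.p6, at chr16:91225300-91225449 for Olig2, chr5:75152001-75152150 for Pdgfra and chr11:100574689-100574838 for Cnp. Capitals mark the E-box CANNTG, the letters that helix-loop-helix factors such as Olig2 are known to read.
Olig2: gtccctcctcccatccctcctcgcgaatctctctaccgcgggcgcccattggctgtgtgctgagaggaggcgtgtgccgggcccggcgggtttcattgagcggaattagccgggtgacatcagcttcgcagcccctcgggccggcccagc
Pdgfra: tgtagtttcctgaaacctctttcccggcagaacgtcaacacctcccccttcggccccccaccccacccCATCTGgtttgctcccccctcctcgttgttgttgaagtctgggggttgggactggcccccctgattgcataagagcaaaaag
Cnp: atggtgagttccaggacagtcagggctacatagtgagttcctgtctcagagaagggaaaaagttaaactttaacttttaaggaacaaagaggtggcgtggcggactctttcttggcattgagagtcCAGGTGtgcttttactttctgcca

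The Olig2 window was the richest in G and C (68.0%), against 58.0% for Pdgfra and 45.3% for Cnp. On either strand, 1 E-box lay in the Pdgfra window and 1 in the Cnp window, and 49.3% of 32851 promoter windows of this length hold at least 1. The Sox letters ACAANG also occurred once in Pdgfra and once in Cnp, against 24.2% of windows. Of the letters of the REST element, the left part TTCAGCAC was in none of the 3 windows (0.6% of all windows) and the right part GGACAG was once in Cnp (11.9% of all windows). None of these motifs overlapped another in the Cnp window, and a match of letters is no evidence of binding.

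Levels are given as CPM, reads scaled to a common library size of 1000000. The Rest_het libraries held 17835117 to 18426652 gene reads and the WT libraries 19996943 to 20753653. A count of 3 reads, taken as the floor of detection, equals 0.159 to 0.166 CPM in Rest_het libraries and 0.143 to 0.158 CPM in WT libraries. The reads include PCR copies, so floors cover counting error only. Rest itself measured 16.7, 19.01 and 18.59 CPM in Rest_het libraries and 21.03, 19.73 and 21.11 CPM in WT libraries, and its edgeR adjusted p was 0.49. That total spans all exons and does not check the deletion.

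All 9 lineage genes together had 3343 reads in the unstranded counts of the 6 libraries, and Cnp and Pdgfra supplied 76.2% of them. Their summed level was 32.5, 29.6 and 35.1 CPM in Rest_het libraries and 31.0, 20.4 and 26.4 CPM in WT libraries. Only WT replicate 1 lay within the Rest_het range, and WT replicate 2 was the lowest. In bulk tissue, fewer cells of a type and less RNA per cell cannot be told apart.

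**Figure D1:**
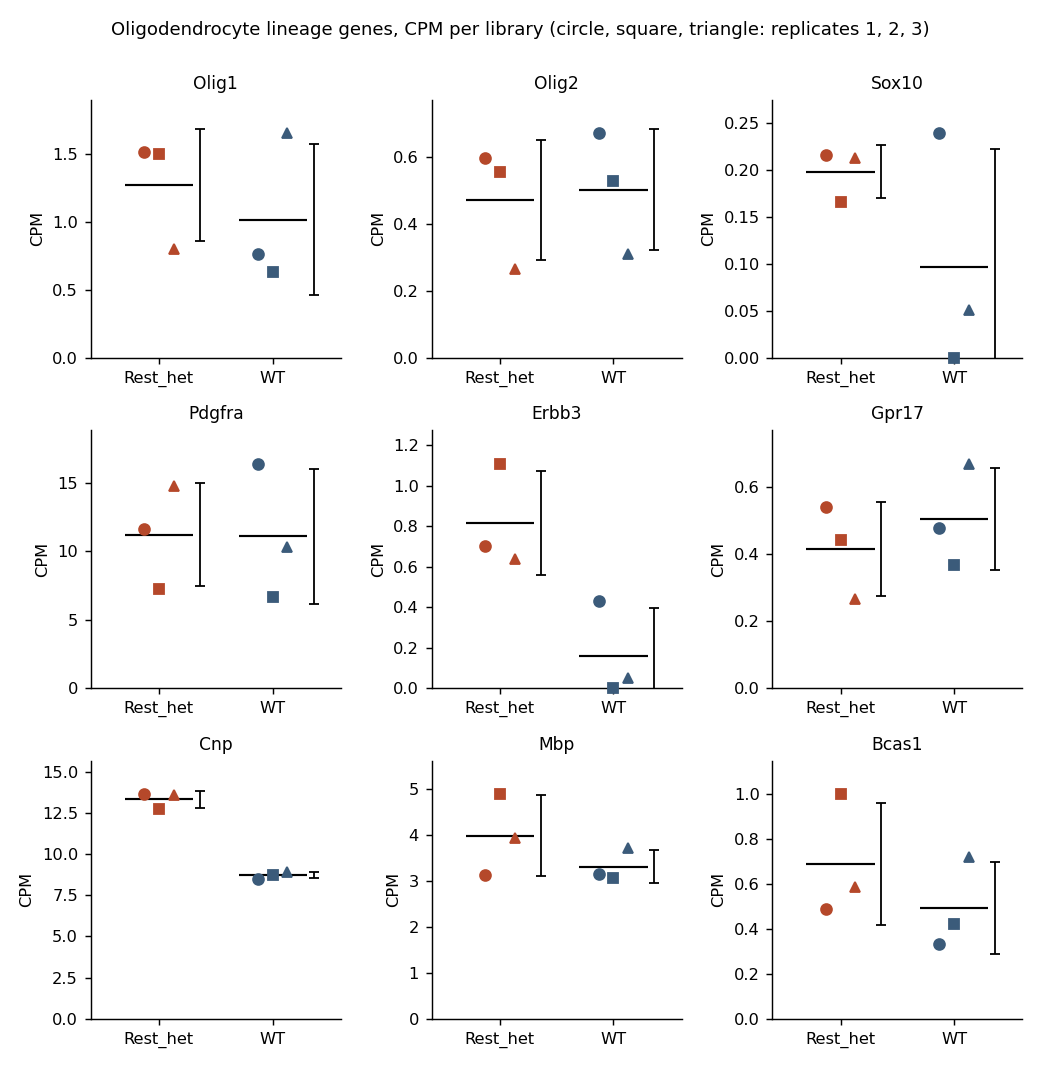
Level of each of the 9 lineage genes in CPM (TMM-scaled), with Rest_het left of WT in each panel; lines are means and bars are 1 SD over 3 libraries, with bars that reach below 0 ended at the axis. Cnp and Erbb3 are the genes whose groups do not overlap, and Sox10 stays below 0.25 CPM in every library.

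Per length of exon, Cnp was the most abundant member, at 3.03 RPKM (reads per kilobase of exon, scaled for depth; mean of 6 libraries, range 2.34 to 3.74), close to the median tested gene at 2.85 RPKM. The unstranded count used for Cnp leaves out most reads at the gene, as described below, so this level holds for that count only. Pdgfra followed at 1.11 RPKM (0.663 to 1.64), with no overlap between the ranges of the 2 genes. Olig1 at 0.528 RPKM (0.293 to 0.762) overlapped with Pdgfra above it and with Mbp below it, at 0.43 RPKM (0.361 to 0.576). Olig2 at 0.192 RPKM (0.105 to 0.264) lay below all values of Mbp. Olig2, Bcas1 (0.157 RPKM), Gpr17 (0.0887 RPKM), Erbb3 (0.0812 RPKM) and Sox10 (0.0484 RPKM) overlapped each with the next. Of the 15350 genes that passed the filter on low counts and had an exon length, 17.0% had a lower RPKM than Olig1, 4.43% a lower one than Olig2 and 0.0975% a lower one than Sox10, which itself did not pass the filter. The 2 most abundant members were Cnp and Pdgfra, and Pdgfra is known from other cells as well.

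No member passed the comparison of the genotypes in edgeR's quasi-likelihood test. Of 7 tested, 0 passed a Benjamini-Hochberg adjusted p under 0.05 over all genes, where 19 of 15385 genes passed (0.123%). Before adjustment 2 of the 7, Cnp and Erbb3, had an edgeR p under 0.05, both higher in Rest_het, against 6.98% of all tested genes higher and 4.72% lower, 11.7% in all. The same 2 members had Rest_het values that all lay above the WT values, against 10.4% of all tested genes, or 19.3% without overlap in either direction. DESeq2 called 1 member, Cnp, at an adjusted p of 0.031, against 0.819% of the genes it fitted, and gave no adjusted p for 3 members, Olig2, Bcas1 and Erbb3. The log2 fold change lay above 0 for 6 of the 7, with a median of 0.32, against a median of 0.005 over all tested genes and 50.9% above 0. Those 7 are not all members, and Erbb3 entered them through its Rest_het libraries alone. The median and the counts of members given above are therefore a description and no support.

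**Figure D2:**
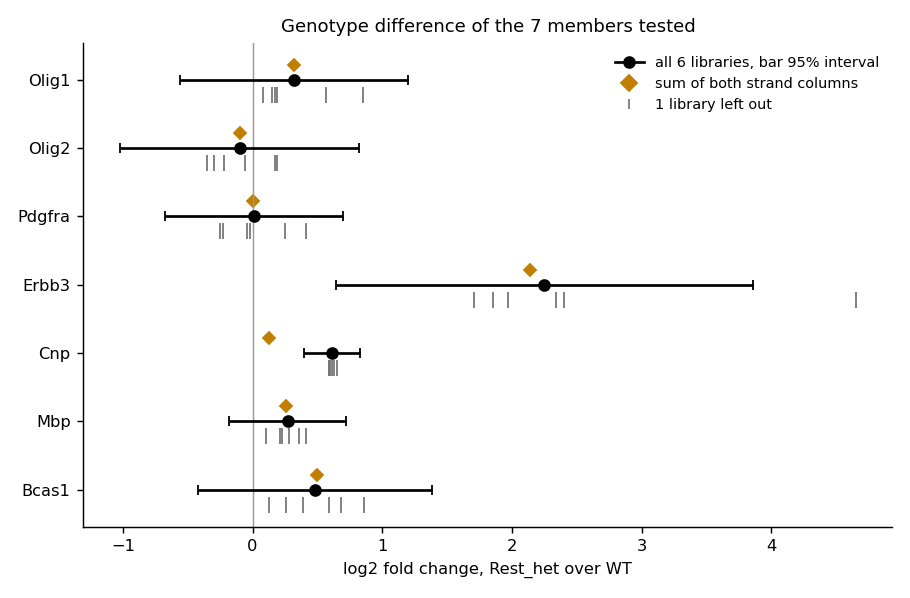
Log2 fold change of the 7 tested members, Rest_het over WT, with bars of 95% intervals; diamonds give the sum of both strand columns and ticks the fits with 1 library left out. Cnp has the narrowest bar, at 0.61, and its diamond lies at 0.13, while Erbb3 lies at 2.25 with ticks from 1.71 to 4.65.

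Among the transcription factors, Olig1 had 28, 27 and 15 reads in Rest_het libraries and 16, 12 and 32 reads in WT libraries. The highest and the lowest values were both WT, and the groups overlapped throughout. Its level averaged 1.27 ± 0.409 CPM in Rest_het and 1.02 ± 0.552 CPM in WT libraries (SD, n = 3 each), and its fold of 1.25 had an interval from 0.677 to 2.3 (edgeR adjusted p 0.81). Olig2, which lies close to Olig1 on chromosome 16, had 11, 10 and 5 reads in Rest_het and 14, 10 and 6 reads in WT libraries. Its fold of 0.935 had an interval from 0.493 to 1.77 (edgeR adjusted p 0.95), so a change to about that upper or lower bound could not be told from none at this depth. The 2 genes ranked the libraries differently: WT replicate 1 was the highest for Olig2 at 0.669 CPM, while for Olig1 it was the fifth at 0.765 CPM. That library held 14 Olig2 and 16 Olig1 reads, too few for the ranks to show whether the 2 genes vary together.

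Sox10, on chromosome 15, had 4, 3 and 4 reads in Rest_het libraries and 5, 0 and 1 reads in WT libraries. The library with the most reads and the one without any were both WT. The 17 reads in all were too few for the test, and without a filter on low counts edgeR gave a log2 fold change of 0.95 with an adjusted p of 0.73.

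Of the receptors, Pdgfra was the most abundant, with 216, 131 and 278 reads in Rest_het and 343, 126 and 200 reads in WT libraries. That is 11.7, 7.26 and 14.8 CPM in Rest_het against 16.4, 6.65 and 10.3 CPM in WT libraries, so the spread within each group exceeded the difference between them. The group means were 11.2 ± 3.77 CPM in Rest_het and 11.1 ± 4.92 CPM in WT libraries (SD, n = 3 each), a fold of 1.01 with an interval from 0.627 to 1.62 (edgeR adjusted p 0.99). Pdgfra lies on chromosome 5 only 2.07 Mb from Rest, nearer than any other member; the others are on other chromosomes.

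The libraries differed in Pdgfra as they differed in meningeal RNA. A list of 16 measured genes of meninges and fibroblasts, such as the collagens Col1a1, Col1a2 and Col3a1 and the proteoglycans Dcn and Lum, summed to 406, 226 and 603 CPM in Rest_het and 561, 208 and 299 CPM in WT libraries. The 2 highest libraries for Pdgfra were WT replicate 1 and Rest_het replicate 3, and the same 2 were highest for 14 of the 16 list genes, against 8.77% of all tested genes. They were also highest for 9 of 16 endothelial and mural genes and 6 of 15 microglial genes. The pattern was therefore not particular to meningeal genes. Between its highest and lowest library Pdgfra differed 2.47-fold and the list's sum 2.91-fold, but their ratio only 1.41-fold, at 2.88, 3.22 and 2.45% in Rest_het and 2.92, 3.2 and 3.45% in WT libraries. None of the 16 passed the edgeR test between genotypes or reached an unadjusted p under 0.05. Whether meningeal or other cells supplied the Pdgfra reads was not tested.

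**Figure D3:**
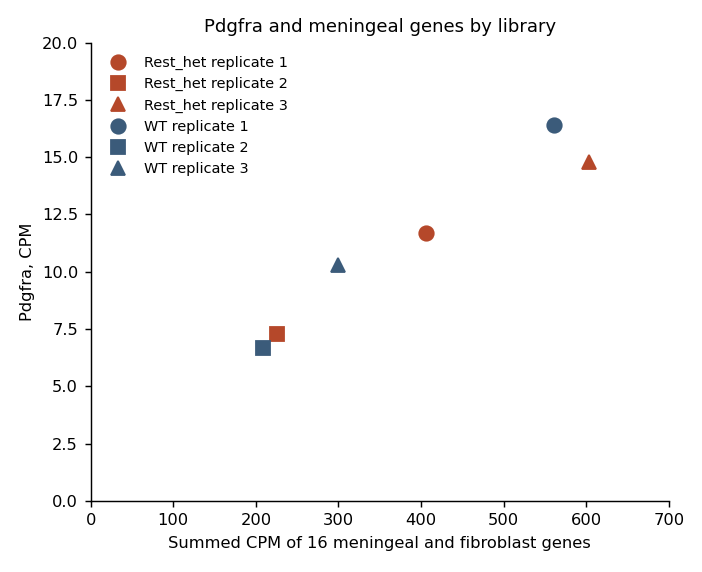
Pdgfra (CPM, vertical axis) against the summed CPM of 16 meningeal and fibroblast genes (horizontal axis), 1 point per library. The points lie near a line from WT replicate 2 at 6.65 CPM to WT replicate 1 and Rest_het replicate 3 at 16.4 and 14.8 CPM, with both genotypes along it.

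Erbb3, on chromosome 10, had 13, 20 and 12 reads in Rest_het libraries and 9, 0 and 1 reads in WT libraries. Every Rest_het library was above every WT library, but Rest_het replicate 3 exceeded WT replicate 1 by 3 reads only. WT replicates 2 and 3 lay below the floor of detection. Erbb3 passed the filter on low counts through its Rest_het libraries alone, so the values that follow are a description. The log2 fold change was 2.25 with SE 0.82, a fold of 4.75 with an interval from 1.56 to 14.4, and the edgeR adjusted p was 0.38. Without WT replicate 1 the log2 fold change was 4.65 (adjusted p 0.33), and without WT replicate 2 it was 1.71 (adjusted p 0.53). Genes that define Schwann and crest cells were at or near 0 in all 6 libraries: Foxd3 and Gfra3 had 0 reads, and Cdh19 8 reads in all.

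Other genes of the neuregulin and PDGF systems did not pass the edgeR test either. Erbb2, the signalling partner of Erbb3, measured 3.95, 2.66 and 4.14 CPM in Rest_het and 2.58, 1.85 and 2.01 CPM in WT libraries (log2 fold change 0.74, edgeR adjusted p 0.37), with no overlap of the groups. The neuregulin gene Nrg1 measured 72.1, 71.3 and 75.6 CPM in Rest_het and 132, 70.1 and 57.9 CPM in WT libraries, where WT replicate 1 stood above the rest. Pdgfa, the ligand of Pdgfra, measured 18.8 ± 2.75 CPM in Rest_het and 18.3 ± 3.28 CPM in WT libraries (SD, n = 3 each), with overlapping groups.

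Gpr17, on chromosome 18, had 10, 8 and 5 reads in Rest_het and 10, 7 and 13 reads in WT libraries, with overlapping groups. It was too low for the main test, and without a filter on low counts edgeR gave a log2 fold change of -0.28 with an adjusted p of 0.89. It shares 188 exon bases with Lims2 on the other strand, and the strand columns summed to 1.23 times its unstranded count.

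Cnp showed the steadiest difference. It had 252, 230 and 256 reads in Rest_het libraries and 178, 166 and 173 reads in WT libraries. In CPM that is 13.6, 12.7 and 13.6 in Rest_het against 8.51, 8.76 and 8.91 in WT libraries, with a wide gap between the groups and little spread within them. The log2 fold change was 0.61 with SE 0.11, a fold of 1.53 with an interval from 1.31 to 1.78. The unadjusted edgeR p was 0.00069 and the adjusted p 0.22, and the adjusted p over the alternative analyses ran from 0.031 to 0.59. When each library was left out in turn the log2 fold change stayed between 0.59 and 0.65.

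These counts were only a small part of the reads at the gene. Cnp (chr11:100574904-100591729, plus strand, GRCm38) shares 154 exon bases, 4.23% of its exon length, with the gene Dnajc7, which encodes a co-chaperone and runs on the other strand. A read pair that touches both is dropped from the unstranded count and enters the strand columns. At Cnp 876, 921 and 1013 such reads were found in Rest_het and 907, 939 and 1087 in WT libraries. They made up 79.2 ± 1.27% of all reads at the gene in Rest_het and 85.0 ± 1.35% in WT libraries (SD, n = 3 each). The sum of the strand columns was 5.58 times the unstranded count for Cnp, and 1.23% of all tested genes had a ratio as high. For the other members the ratio was between 1.0 and 1.23.

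The groups were apart in the reads counted for Cnp alone and overlapped in the shared reads. The shared reads measured 50.7 ± 3.26 CPM in Rest_het and 49.6 ± 6.35 CPM in WT libraries (SD, n = 3 each). All reads at the gene, counted over both strand columns, measured 61.0, 63.8 and 67.4 CPM in Rest_het and 51.9, 58.3 and 64.9 CPM in WT libraries. On that sum the log2 fold change was 0.13 and the edgeR adjusted p 0.59. Dnajc7, counted alone, was far more abundant and measured 208 ± 8.98 CPM in Rest_het and 205 ± 12.5 CPM in WT libraries (SD, n = 3 each; edgeR adjusted p 0.94). The libraries do not mark strand, so which of the 2 genes gave the shared reads cannot be told apart.

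**Figure D4:**
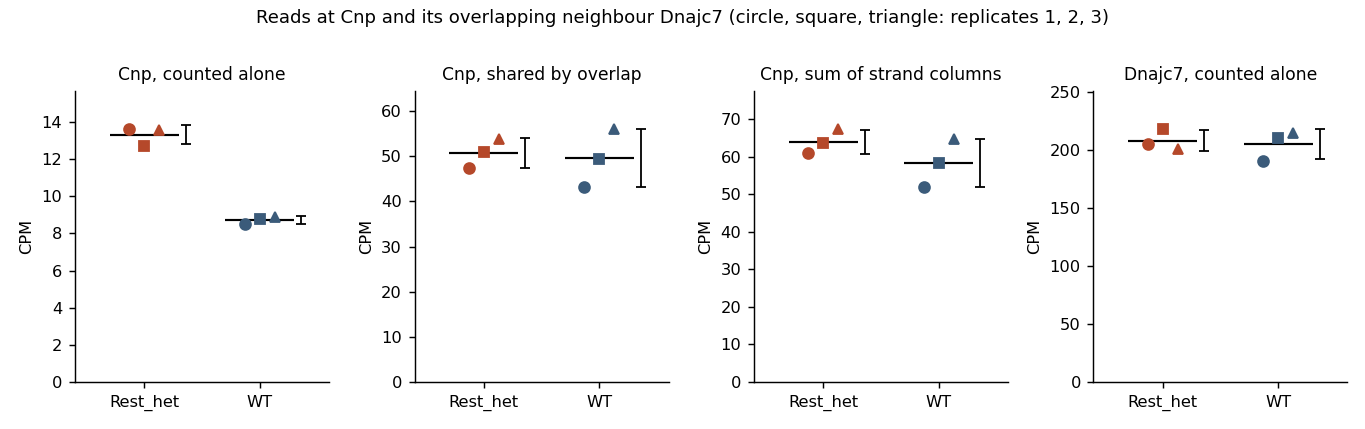
Reads at Cnp in CPM, counted for Cnp alone, shared by its overlap with a gene on the other strand, and both together, beside Dnajc7 counted alone; Rest_het stands left of WT, lines are means and bars 1 SD over 3 libraries. The groups are apart in the first panel, at 13.3 and 8.72 CPM on average, and overlap in the other panels.

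Mbp, on chromosome 18, had 58, 88 and 74 reads in Rest_het and 66, 58 and 72 reads in WT libraries. Rest_het replicate 2 was the highest, and the other Rest_het libraries lay near or within the WT range. The means were 3.98 ± 0.872 CPM in Rest_het and 3.31 ± 0.35 CPM in WT libraries (SD, n = 3 each), a fold of 1.2 with an interval from 0.884 to 1.64 (edgeR adjusted p 0.66). Bcas1, on chromosome 2, had 9, 18 and 11 reads in Rest_het and 7, 8 and 14 reads in WT libraries. Its fold of 1.4 had an interval from 0.749 to 2.6 (edgeR adjusted p 0.7). Of the exon length of Bcas1, 11.66% is shared with the antisense gene Bcas1os1, and its strand columns summed to 1.18 times the unstranded count.

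Rest_het replicate 2 was the highest library for Mbp, Bcas1 and Erbb3, 3 of the 7 tested members, against 19.4% of all tested genes. It was also the highest for 14 of 19 tested genes of the ventral telencephalon and its interneurons. That list summed to 892, 1329 and 1105 CPM in Rest_het and 1103, 788 and 1164 CPM in WT libraries. Within it the striatal factor gene Isl1 measured 19.2, 41.9 and 18.9 CPM in Rest_het and 22.9, 6.59 and 21.9 CPM in WT libraries. Nkx2-1, of the same list but too low for the test, ranked the libraries differently. It measured 2.92, 1.83 and 0.372 CPM in Rest_het and 0.0956, 0.316 and 0.103 CPM in WT libraries, without overlap. WT replicate 2, the lowest in the list's sum, was also the lowest for the sum of the 9 lineage genes. Among the marker lists it was the lowest for the meningeal, endothelial and microglial sums and that of hippocampus, hem and choroid plexus too. It was not the lowest for those of dorsal cortex, radial glia, thalamus and neural crest. Rest_het replicate 2, the highest in the ventral sum, had the lowest lineage sum of the Rest_het libraries, at 29.6 CPM. Cnp and Pdgfra supplied 67.5% of the lineage reads in that library. Pdgfra measured 7.26 CPM there, against 11.7 and 14.8 CPM in Rest_het replicates 1 and 3. The lineage sum therefore does not show how the less abundant members ranked. Without Rest_het replicate 2 the log2 fold change was 0.1 for Mbp and 0.13 for Bcas1. The part of ventral tissue in these levels was not tested. Genes of the dorsal cortex, among them Emx1 and Neurod2, were present in every library and summed to 2862 to 3033 CPM in Rest_het and 3068 to 3486 CPM in WT libraries.

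Beyond the 9, other genes of the lineage were followed in 3 lists. Of 35 other precursor genes, 26 were tested and 0 passed edgeR's adjusted threshold, with 3 higher and 4 lower at an unadjusted p under 0.05 (all tested genes: 6.98% higher and 4.72% lower) and a median log2 fold change of 0.03. The proteoglycan gene Vcan measured 271, 276 and 283 CPM in Rest_het and 399, 313 and 346 CPM in WT libraries, with no overlap (log2 fold change -0.35, edgeR adjusted p 0.34). Tnr, a matrix glycoprotein, measured 2.16, 1.55 and 1.81 CPM in Rest_het and 3.78, 2.9 and 4.27 CPM in WT libraries (log2 fold change -0.99, edgeR adjusted p 0.32), and its strand columns summed to 2.16 times the unstranded count. Cspg5, the proteoglycan neuroglycan C, and Serpine2, a protease inhibitor, were on the log2 scale 0.6 and 0.66 above WT, with edgeR adjusted p of 0.36 and 0.35. Cspg4, the proteoglycan NG2 of precursors and pericytes, measured 4.11, 3.99 and 4.25 CPM in Rest_het and 3.54, 2.8 and 3.45 CPM in WT libraries (edgeR adjusted p 0.51), with no overlap either.

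Of 37 genes of myelin and maturing oligodendrocytes, 24 were tested and 0 passed with edgeR, with 1 higher and 1 lower at an unadjusted p under 0.05 (all tested genes: 6.98% higher and 4.72% lower) and a median log2 fold change of 0.04. Several genes of myelinating cells were at or near 0. Mobp and Klk6 had 0 reads in the 6 libraries, Opalin 2 reads, Enpp6 6 reads, Mag 22 reads and Myrf, the factor that turns on myelin genes, 40 reads in all. Ermn, a cytoskeletal protein of oligodendrocytes, had 150 reads (1.19 CPM in Rest_het and 1.43 CPM in WT libraries on average), and Ugt8a, the enzyme that makes galactosylceramide of myelin, had 157 reads (1.32 CPM in Rest_het and 1.43 CPM in WT libraries). Mog, a protein of the outer myelin surface, was more abundant: it measured 26.1, 31.0 and 23.5 CPM in Rest_het and 29.3, 28.7 and 29.7 CPM in WT libraries, 3221 reads in all (edgeR adjusted p 0.69). The higher gene was Mal2, a membrane traffic protein not known as specific to the lineage, at 52.5, 97.9 and 49.3 CPM in Rest_het and 0.956, 27.2 and 2.11 CPM in WT libraries (log2 fold change 2.73, edgeR adjusted p 0.37). With single libraries left out it ran from 2.19 to 5.45, and without WT replicate 2, the highest WT library, its edgeR adjusted p was 0.0081. The lower one was Nfasc, an adhesion protein of the node of Ranvier that neurons also make, at -0.46 on the log2 scale with an edgeR adjusted p of 0.32. DESeq2 called Nfasc, with an adjusted p of 0.041, and no other gene of this list.

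Of 46 ligands, partner receptors and regulators of the lineage, 43 were tested and 0 passed with edgeR, with 6 higher and 1 lower at an unadjusted p under 0.05 (all tested genes: 6.98% higher and 4.72% lower) and a median log2 fold change of 0.04. Etv4, a factor induced by receptor tyrosine kinases, differed by 0.98 on the log2 scale with an edgeR adjusted p of 0.34, and Hes5, a Notch target that holds progenitors undifferentiated, by 0.66 with 0.36. Fgfr2, a receptor of fibroblast growth factors, differed by -0.36 with 0.37. In this list the SRY-box gene Sox11 stood apart, at 59714, 5559 and 5118 CPM in Rest_het and 3560, 70514 and 65270 CPM in WT libraries. High and low libraries occurred in both groups.

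By Pearson's correlation over the 6 libraries, the genes most like the mean of the 7 tested members, each scaled to unit variance, were Trim8 (0.998), Slco3a1 (0.993), Coch (0.99), Rnf220 (0.987) and Lgi2 (0.987). With 15378 genes set against 6 values, coefficients of this size are a ranking and no more. All 5 were highest in Rest_het replicate 2 and lowest in WT replicate 2. Trim8, a ubiquitin ligase, measured 52.5, 58.3 and 51.0 CPM in Rest_het and 48.2, 41.2 and 47.8 CPM in WT libraries (edgeR adjusted p 0.42).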

How the data were processed

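RNA of the neocortex was reverse transcribed from oligo dT with a template-switching oligo, amplified for 12 PCR cycles, tagmented with Nextera XT and read as 126-base pairs, per the labels' protocols. No strand is marked and no molecular identifiers are used. The authors deposited read counts per gene for each sample, for which the submitters' processing notes name STAR 2.5.2a and the build GRCm38.p4, and a table of normalized signal. That deposited signal came from DESeq2 per the same notes, and equalled the count divided by 1 size factor per library (relative tolerance 1e-06). Rows that name no gene stayed out: unmapped (1.21 to 1.45% of read pairs), multimapped (6.29 to 7.48%), no gene (21.42 to 26.89%) and ambiguous (2.54 to 2.85%).

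The unstranded column was tested with edgeR 4.0.16 (R 4.3.3, quasi-likelihood, TMM scaling, genotype as the single term, filterByExpr at a minimum count of 10 and total count of 15). CPM are TMM-scaled, RPKM use union exon lengths of GENCODE M21 on GRCm38, and SD is over 3 libraries. Intervals are nominally 95% (1.96 SE on each side). That multiple takes no account of the few libraries, so the intervals are narrower than the edgeR p implies. Symbols matched 48349 of 48709 gene IDs. The labels name separate mice without saying whether they shared a litter. The libraries of a group differed by far more than counting noise. Alternatives used DESeq2 1.42.0, limma 3.58.1 (voom, and log2 of the deposited values with a pseudocount of 1), other scalings, filters and thresholds, the replicate block, both strand columns, no sex chromosomes and each library left out. In simulated data for this comparison (15414 genes), edgeR called 20% of 50 genes changed 1.5-fold, 72% at 2-fold and 100% at 3-fold. The changed genes averaged at least 1 CPM, and all genes were given the same spread between libraries. Olig2, Sox10, Gpr17, Bcas1 and Erbb3 averaged less than 1 CPM, and real genes differ in spread, so these shares do not carry over to the members. Members and gene lists were chosen with earlier results of these data known. By rule, all members, the targeted gene, called list genes, up to 4 list genes per list with the smallest p, and the 5 genes most like the members were eligible to be named; genes named beyond these were chosen after their values were seen. Of the marker lists, those of microglia, endothelium, hippocampus, thalamus and radial glia are given in the closing section. Promoter sequences are from RefSeq (GRCm38.p6). The values of some list genes are not reported here.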

Additional observations from a re-analysis of the deposited data

Results flagged for a closer look

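Reads outside the gene counts differed between the groups. The Cre-ERT2 sequence had 10, 16 and 17 reads in Rest_het libraries, 43 in all, and 0 in each WT library, which allows up to 3 reads each. The LacZ sequence had 0 reads in each Rest_het library and 27, 51 and 43 reads in WT libraries, 121 in all. The labels name neither sequence.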

How the results depend on the processing

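The count of 19 genes called by edgeR over the whole table was 126 with DESeq2, 107 without a filter and 6 with the replicate block, and it ran from 12 (without WT replicate 1) to 35 (without WT replicate 2), with 32 without Rest_het replicate 3. Members called were 0 under all alternatives except DESeq2, which called 1, Cnp; with the replicate block too the count was 0. The median log2 fold change of the tested members, 0.32, ran from 0.15 without WT replicate 2 to 0.63 without WT replicate 3. The sign of Pdgfra turned to -0.01 with upper-quartile factors and ran from -0.25 to 0.41 when single libraries were left out, and that of Olig2 from -0.35 to 0.19. Of 980 recomputed values of single named genes, 7 turned, all of these 2 members. Same-numbered samples did not deviate together (correlations -0.008, 0.05 and -0.163), so no pairing by number was seen. That check cannot exclude a shared litter or preparation. For Sox10, Erbb3, Gpr17, Olig2 and Bcas1, with at most 20 reads in a library, depth limits any comparison.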

Other observations

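Marker lists of other cells were summed per library. Microglial genes summed to 96.5, 84.6 and 120 CPM in Rest_het and 122, 78.9 and 85.4 CPM in WT libraries, and genes of the hippocampus, cortical hem and choroid plexus to 364, 165 and 521 CPM in Rest_het and 218, 134 and 148 CPM in WT libraries. Ttr, a choroid plexus gene, made up most of that difference, at 169, 5.49 and 357 CPM in Rest_het and 53.0, 2.27 and 3.09 CPM in WT libraries (edgeR adjusted p 0.44). Without Ttr the sums were 194, 160 and 164 CPM in Rest_het and 165, 132 and 145 CPM in WT libraries. Thalamic and hypothalamic genes summed to 49.6, 58.0 and 33.6 CPM in Rest_het and 27.9, 26.9 and 22.4 CPM in WT libraries, without overlap. Olig3, the relative of Olig1 and Olig2 that is known from the thalamus and caudal brain, measured 0.162, 6.54 and 0.584 CPM in Rest_het and 0, 0.211 and 0.154 CPM in WT libraries. Rest_het replicate 2 thus held most of its reads. Endothelial and mural genes summed to 1609, 1283 and 392 CPM in Rest_het and 417, 262 and 330 CPM in WT libraries. Rgs5, a pericyte gene, measured 1432, 1161 and 196 CPM in Rest_het and 216, 152 and 181 CPM in WT libraries (log2 fold change 2.34, edgeR adjusted p 0.32, and 0.0018 without Rest_het replicate 3 and 0.0037 without a filter). Without Rgs5 the sums were 177, 123 and 196 CPM in Rest_het and 201, 109 and 150 CPM in WT libraries, and the groups overlapped. Radial glial genes summed to 2188, 2150 and 2344 CPM in Rest_het and 2479, 2318 and 2167 CPM in WT libraries.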
